A study of Mus musculus with 62 samples.

Results

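Keratins are the intermediate filament proteins of epithelial cells. The keratin genes of the deposited expression table were taken as every gene whose symbol was Krt followed by a number and at most 1 letter, which gave 52 of the 23845 genes listed. Keratin-associated protein genes were not included. Of the 52, 3 are keratins of basal epithelial cells (Krt5, Krt14, Krt15), 6 are keratins of simple or luminal epithelium (among them Krt7, Krt8, Krt18, Krt19 and Krt23), 4 are keratins known to rise in stressed or wounded epidermis (Krt6a, Krt6b, Krt16, Krt17), 13 belong to stratified epithelium such as skin, oesophagus and tongue, 24 to hair and its root sheath, and 2 were placed in no class.

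Polyadenylated RNA of adult C57BL/6 males was sequenced from testis and from the caput and cauda of the epididymis, its head and tail. The males were 8 to 14 weeks old and gave 62 libraries. Values were in TPM, the share of all transcripts after scaling by transcript length, so levels can be set beside each other between genes. Specific-pathogen-free (SPF) wild-type males gave 3 testis, 4 caput and 4 cauda libraries, and wild-type germ-free (GF) males, raised in isolators without microbes, gave 4, 6 and 6. F1 males were wild-type sons of a GF father and an SPF mother and were bred in conventional housing (3 caput and 3 cauda libraries). Rag2-/- males, which lack mature T and B cells, gave 2 caput and 3 cauda libraries. Recolonized GF males (wild type, 3 libraries of each tissue) came from a GF line of another laboratory that was kept in conventional housing for generations, and were compared with a second SPF set of 5 libraries of each tissue. GF and SPF males came from different colonies, so that the colony and the absence of microbes cannot be told apart. Recolonized males also came from another colony than their SPF controls, and the methods give no source for the Rag2-/- males. In these comparisons too, the colony cannot be told apart from recolonization or from the genotype. The same SPF libraries of a tissue served as controls for the GF, F1 and Rag2 knockout comparisons, which are therefore not independent of each other.

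Keratins form obligate pairs of a type I and a type II chain, and the pair a cell uses changes with its place in the epithelium. The epididymal duct is lined by a pseudostratified epithelium in which principal cells reach the lumen and carry Krt8 with Krt18, as other simple epithelia do, while small basal cells lie on the basement membrane and carry Krt5 with Krt14. In the testis the germ cells and Sertoli cells hold little keratin, and the hair keratins are best known from the cortex and cuticle of the hair shaft.

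The labelled tissues were checked first. Summed caput principal-cell markers were 69664 to 103774 TPM in the caput libraries and 17.0 to 335 TPM in the cauda libraries, and summed sperm and spermatid markers were 70720 to 103746 TPM in the testis. Epithelial markers other than keratins summed to 96.8 to 169 TPM in the testis and to 1012 to 1228 TPM in SPF caput. Rag2 itself was listed at 0 TPM in every caput and cauda library, SPF libraries included, and so did not check the knockout label, whereas summed T and B cell markers were 4.01 to 5.27 TPM in SPF cauda and 1.79, 0 and 2.20 TPM in the Rag2 knockout cauda. The second SPF set cauda (2.02 to 4.20 TPM) reached these values, and the knockout caput (3.01 and 3.19 TPM) lay within SPF caput (2.96 to 4.73 TPM), so that the sums did not check the label in the caput. No columns were identical, and the closest pair of libraries had a correlation of 0.9962 across genes. In cauda replicate 4 of the GF group the organ was swollen. This library was left out of the comparisons and is described at the end.

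Of the 52 keratins, 21 reached 1 TPM in at least 1 library and 18 had a mean of 1 TPM or more in at least 1 group. A further 29 were above 0 in some library but stayed at or below 0.88 TPM, and Krt72 and Krt82 were listed at 0 in all 62 libraries. All 3 basal keratins and 5 of the 6 luminal keratins had a group mean of 1 TPM or more, against 4 of 13 stratified and 4 of 24 hair keratins. Averaged over all libraries of a tissue, 4 keratins had a mean of 1 TPM or more in the testis (Krt6a, Krt8, Krt10, Krt23), 11 in the caput and 14 in the cauda. The cauda added Krt4 and the hair keratins Krt31, Krt32 and Krt35 to the keratins of the caput, and lacked Krt23.

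Summed over the family, keratin RNA came to 17.0 ± 3.03 TPM (SD, n = 3) in SPF testis, 2002 ± 23.8 TPM (n = 4) in SPF caput and 1987 ± 388 TPM (n = 4) in SPF cauda. The 4 SPF cauda libraries gave 1791, 1586, 2092 and 2477 TPM and spread far more than the 4 caput libraries. The GF groups gave 20.03 ± 2.58 TPM in testis (n = 4), 2000 ± 146 TPM in caput (n = 6) and 1730 ± 212 TPM in cauda (n = 6). This cauda mean includes the swollen organ, at 1695 TPM. Luminal keratins made up 89.8% of keratin RNA in SPF caput and 82.2% in SPF cauda, and basal keratins 9.25% ± 0.324 and 14.96% ± 2.05. Over all libraries the basal share was 8.03% to 11.4% in the caput and 10.1% to 17.7% in the cauda, so the tissues overlapped. In a whole-tissue library a lower level can come from fewer cells of a type or from less RNA per cell, and these cannot be told apart.

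**Figure D1:**
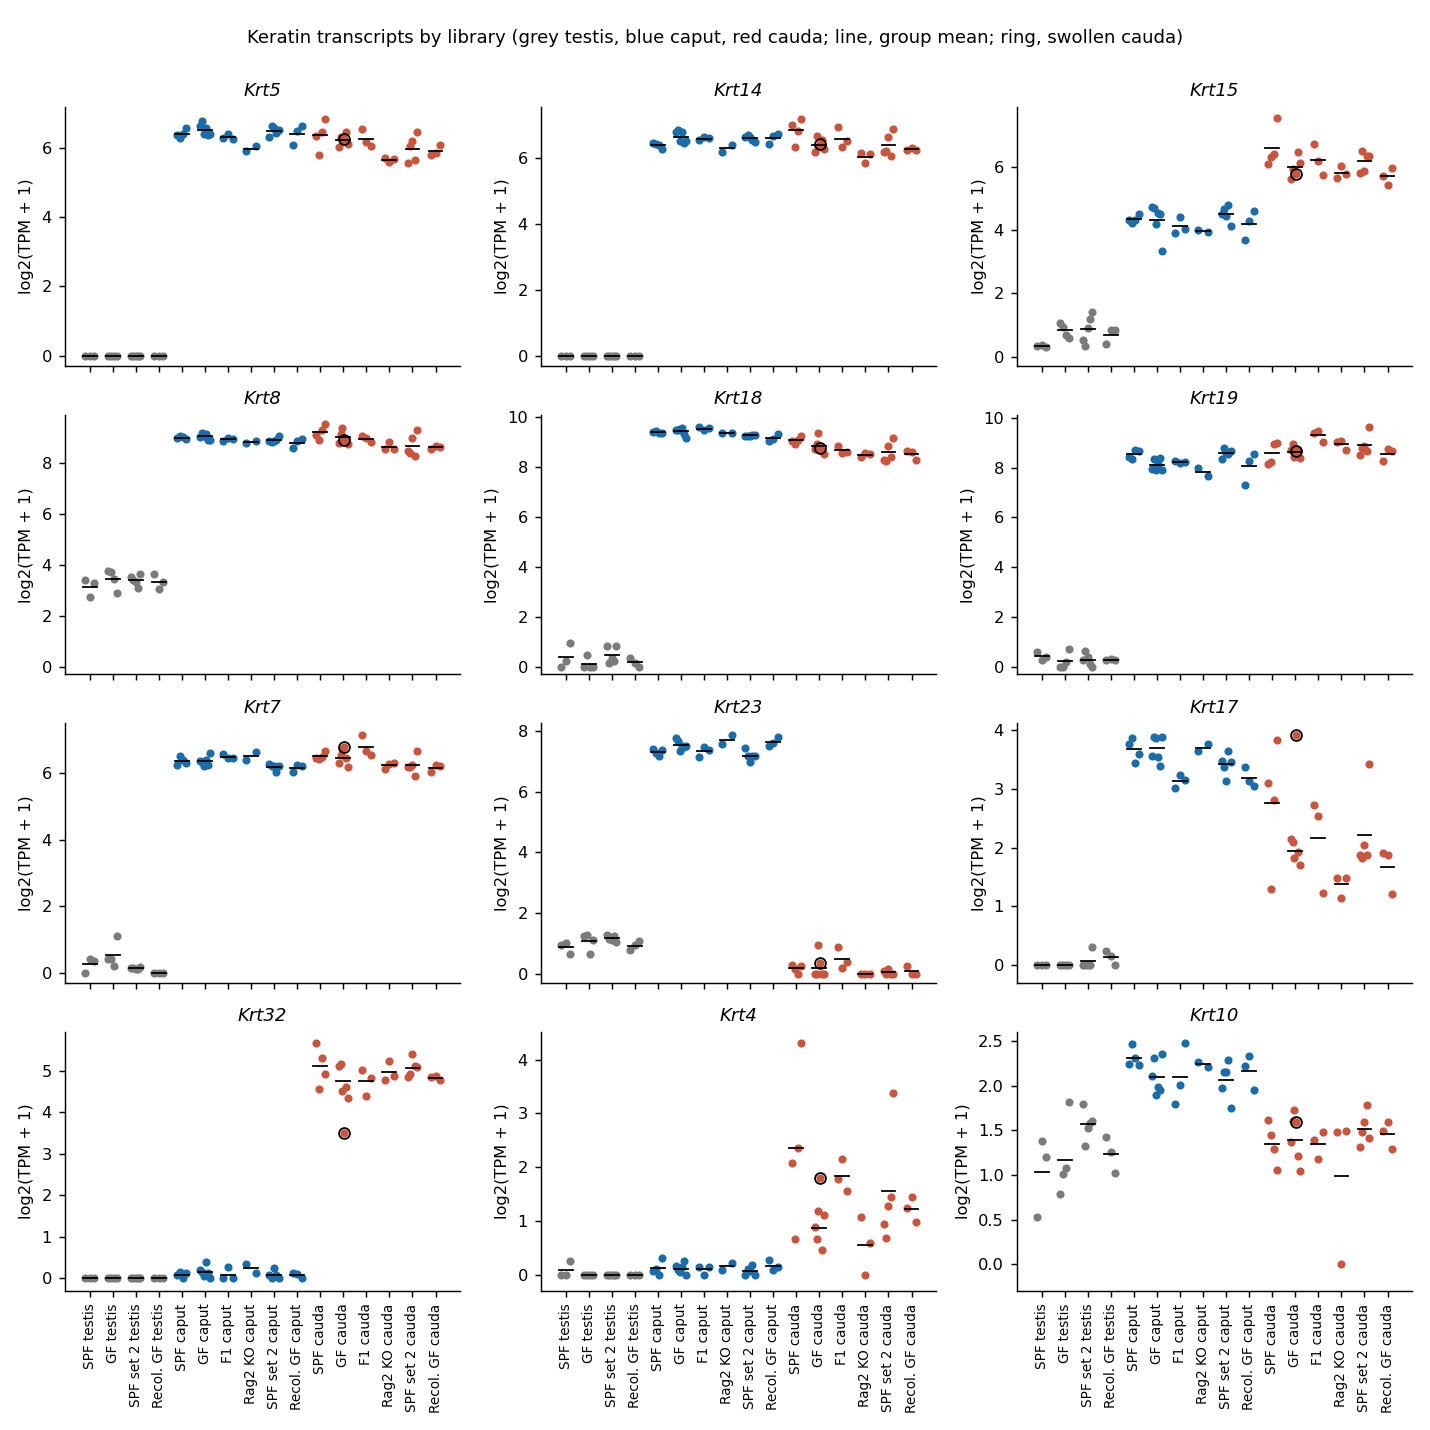
Levels of 12 keratins as log2(TPM + 1) in each library, by group on the horizontal axis, with testis in grey, caput in blue and cauda in red, a line at each group mean (GF cauda without the swollen organ) and a ring around the swollen cauda. Krt5 and Krt14 are at 0 in every testis, Krt23 is high in the caput alone, and Krt32 is high in the cauda alone.

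For each comparison, limma was fitted to log2(TPM + 1) over all genes whose mean TPM in the libraries compared reached 1. A gene was called where the Benjamini-Hochberg adjusted p was at most 0.05 and the fold change on this scale at least 1.5. This scale understates the change of low genes. Between cauda and caput of SPF males, 6 of the 14 keratins tested were called, against 39.4% of all genes tested. Krt4, Krt15, Krt32 and Krt35 were higher in the cauda (21.1% of all genes were called higher) and Krt10 and Krt23 lower (18.4%). In the second SPF set 7 of 14 were called (50.3% of all genes, 23.9% higher and 26.4% lower), and in GF males 6 of 12 (46.6%, 30.8% higher and 15.8% lower). Krt15, Krt23 and Krt32 were called in all 3 sets with the same sign. These shares lie near those of all genes. A keratin present in 1 region only passed the filter through that region and had to differ.

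**Figure D2:**
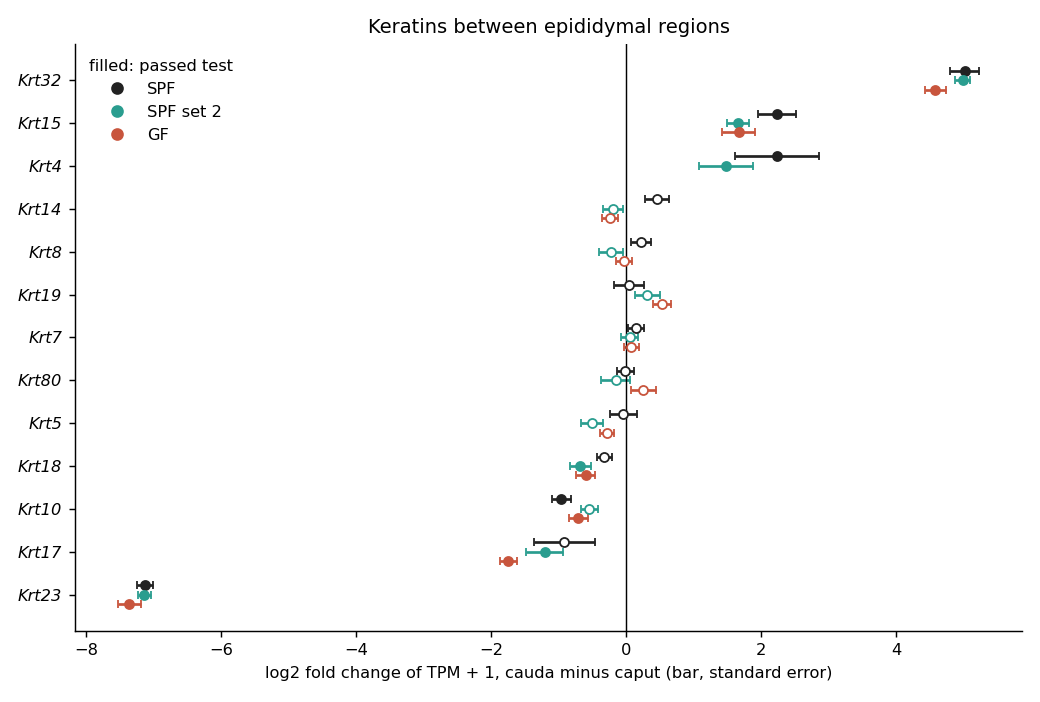
Difference between cauda and caput in log2(TPM + 1), with its standard error, for 13 keratins in SPF, second-set SPF and GF males, with filled points for keratins called in that set. Krt23 lies between -7.13 and -7.36 and Krt32 between 4.58 and 5.02, and Krt5, Krt7 and Krt8 have open points in all 3 sets.

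Among the basal keratins, Krt15 was higher in the cauda and Krt5 was not. Krt5, the type II chain of basal cells, was at 80.8, 77.1, 82.1 and 92.9 TPM in the SPF caput libraries and 79.3, 54.6, 86.4 and 112 TPM in the SPF cauda libraries. The cauda values lay on both sides of the caput values (log2 difference -0.04, adjusted p 0.874). Krt14, its type I partner, was at 87.3, 84.4, 82.3 and 75.9 TPM in SPF caput and 128, 79.6, 112 and 144 TPM in SPF cauda. Here 3 of the 4 cauda libraries lay above all caput libraries, and the difference of 0.45 did not pass the test (adjusted p 0.0606). Without SPF cauda replicate 2 it was called (0.62, adjusted p 0.00508). The ratio of Krt5 to Krt14 was 1.02 ± 0.145 in SPF caput and 0.715 ± 0.0763 in SPF cauda (SD, n = 4). Krt5 of the second SPF set was at 78.0, 96.5, 93.6, 83.7 and 90.3 TPM in the caput and 46.4, 64.7, 71.4, 48.7 and 85.6 TPM in the cauda. Only cauda replicate 5 reached the caput range there, and the difference was under 1.5-fold (-0.51, adjusted p 0.0115) but was called without that library (-0.62). Both genes were listed at 0 in all 15 testis libraries and above 0 in all 23 caput and 24 cauda libraries. Of their 50-base transcript windows, 8.52% of Krt5 (among others with Krt6a and Krt6b) and 13.9% of Krt14 (with Krt16 and Krt17) occur in another gene.

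Krt15, a type I keratin known from basal and stem cells of stratified epithelia, was at 19.1, 17.8, 19.0 and 21.7 TPM in SPF caput and at 67.2, 77.8, 83.3 and 183 TPM in SPF cauda. No cauda library came near the caput range, and replicate 4 of the cauda was the highest by a wide margin. The difference was 2.23 (SE 0.28, adjusted p 0.000176), a ratio of mean TPM of 5.29. In the second SPF set the caput libraries gave 21.8, 24.3, 20.6, 26.9 and 16.3 TPM and the cauda libraries 55.0, 89.5, 56.8, 79.1 and 80.2 TPM. The difference there was 1.66 (adjusted p 1.84e-06, ratio of means 3.28) and in GF males also 1.66 (adjusted p 6.28e-05). Over all groups Krt15 lay between 9.01 and 26.9 TPM in the caput and between 41.7 and 182.9 TPM in the cauda, without overlap. The ratio of Krt15 to Krt14 did not exceed 0.292 in the caput libraries and was 0.526 to 1.27 in the cauda libraries. Summed markers of basal cells other than keratins overlapped between SPF caput (90.7 to 110.7 TPM) and cauda (73.5 to 106.7 TPM). The sums of the second set were 115.5 to 135.8 TPM in the caput and 69.0 to 115.4 TPM in the cauda, with 4 of 10 genes tested called lower in the cauda and 1 higher. Their part in the keratin levels was not tested.

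Krt8 and Krt18, the chains that pair in simple epithelium, were the most abundant keratins of the caput. Krt18 was at 681, 706, 657 and 653 TPM in SPF caput and at 524, 481, 538 and 613 TPM in SPF cauda. Every cauda library was below every caput library, but the difference of -0.33 (SE 0.11, adjusted p 0.0352) was under 1.5-fold. In the second SPF set the caput held 604 to 633 TPM and the cauda 315, 303, 455, 337 and 576 TPM, again without overlap. The differences in that set and in GF males were -0.68 (adjusted p 0.00221) and -0.60 (adjusted p 0.00238), both called. The GF difference fell under 1.5-fold when any one of GF caput replicates 2, 3 and 4 or cauda replicates 1, 5 and 6 was left out (-0.52 to -0.58). Krt8 was at 503, 541, 521 and 488 TPM in SPF caput and 557, 476, 639.9 and 746 TPM in SPF cauda. Its groups overlapped (difference 0.22, adjusted p 0.248). Mesothelial markers other than keratins, from a cell type that carries these keratins too, summed to 102.6 to 111 TPM in SPF caput and 3.82 to 9.74 TPM in SPF cauda, and their part was not tested.

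The balance of this pair separated the regions in all groups. The ratio of Krt8 to Krt18 was 0.762 ± 0.0240 in SPF caput and 1.12 ± 0.107 in SPF cauda (SD, n = 4 each). Over all libraries it was 0.605 to 0.850 in the caput and 0.921 to 1.34 in the cauda, with no overlap. Group means ran from 0.657 (F1) to 0.782 (second SPF set) in the caput and from 1.08 (second SPF set) to 1.22 (F1) in the cauda. No test was run on these ratios. Of the 50-base windows of Krt8 transcripts, 26.9% also occur in another transcript, the Krt8-ps pseudogene, so that part of its level depends on how reads were assigned. For Krt18 this share was 0.72%.

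**Figure D3:**
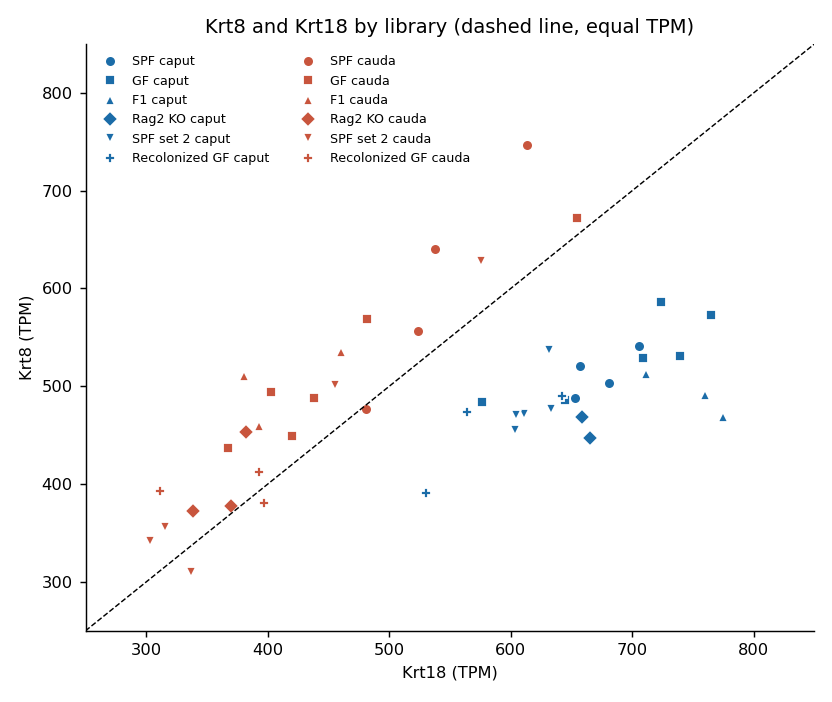
Krt8 (vertical axis, TPM) against Krt18 (horizontal axis, TPM) in each caput and cauda library, with a dashed line where the levels are equal. All caput libraries lie below the line, at ratios of 0.605 to 0.850, and the cauda libraries lie around and above it, at 0.921 to 1.34.

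Krt19 and Krt7, further keratins of simple and glandular epithelium, did not pass the test between the regions in SPF males. Krt19 was at 339, 324, 422 and 401 TPM in SPF caput and 279, 300.3, 486 and 508 TPM in SPF cauda (difference 0.04, adjusted p 0.896). In GF males the cauda was higher by 0.53 (adjusted p 0.00336), a fold under 1.5 that was called without GF cauda replicate 6 (0.59). Krt7 was at 74.4, 90.7, 83.1 and 78.4 TPM in SPF caput and 87.4, 84.8, 89.0 and 100.1 TPM in SPF cauda, ranges that overlapped (difference 0.14, adjusted p 0.312).

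Krt23, a type I keratin of glandular epithelium, had the largest difference between the regions of the keratins tested in SPF males. It was at 171, 153, 143 and 164 TPM in SPF caput and never above 0.94 TPM in any of the 24 cauda libraries. In the second SPF set the caput libraries held 174, 142, 126, 146 and 143 TPM. The lowest of these was the lowest of all caput libraries, and the testis libraries held 0.56 to 1.43 TPM. The SPF difference was -7.13 (SE 0.12, adjusted p 3.13e-10), followed by -7.14 in the second SPF set (adjusted p 1.14e-14) and -7.36 in GF males (adjusted p 3.61e-12). With no filter on low genes, Krt23 was also higher in testis than in cauda, by 0.69 in the SPF set (adjusted p 0.00168) and by 1.12 in the second (adjusted p 1.42e-08). None of the 50-base windows of its transcripts occur in another gene's transcripts.

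Of the 24 hair keratins, 4 had a group mean of 1 TPM or more (Krt31, Krt32, Krt35 and Krt36). Krt28 and Krt33a reached 1 TPM in at least 1 library, and the rest in none. Krt32, a type I keratin of the hair cuticle, was at 49.5, 22.5, 38.4 and 29.4 TPM in SPF cauda, at or below 0.32 TPM in every caput library and at 0 in every testis. Its cauda level was above that of Krt7 in no SPF library but above that of Krt10, Krt17 and every stratified keratin in all 4. The SPF difference from caput was 5.02 (SE 0.22, adjusted p 1.41e-07), and it was 4.99 in the second SPF set (adjusted p 1.6e-12) and 4.58 in GF males (adjusted p 7.61e-11). In the second SPF set the cauda libraries gave 27.8, 29.2, 41.5, 33.4 and 33.0 TPM, within the SPF range.

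Krt35, Krt31 and Krt36, further type I hair keratins, were chosen for description after their values were seen. Krt35 was at 2.34, 1.58, 2.87 and 1.95 TPM in SPF cauda and was listed at 0 in all testis and caput libraries (adjusted p 1.07e-05 in the SPF set and 5.95e-08 in the second). Krt31 was at 1.09, 1.33, 0.93 and 0.49 TPM in SPF cauda and at most 0.23 TPM in the caput. With no filter on low genes its differences were 0.86 in SPF males (adjusted p 0.00192), 0.92 in the second set (adjusted p 0.000121) and 1.08 in GF males (adjusted p 7.39e-07). Krt36 was at 0.45, 0.68, 0.92 and 0.55 TPM in SPF cauda and at most 0.43 TPM in the caput. Its differences with no filter were 0.45 in SPF males, 0.57 in the second set and 0.56 in GF males, all under 1.5-fold. Of the Krt31 windows, 28.1% are shared with Krt34, Krt33a, Krt33b, Krt35 and Krt36, against 2.7% for Krt35 and none for Krt32.

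These genes are neighbours. In the RefSeq annotation of GRCm38.p6, Krt31 (chr11:100046646-100050551), Krt32 (chr11:100080848-100088269), Krt35 (chr11:100092192-100096224), Krt36 (chr11:100102012-100109487), Krt13 (chr11:100117327-100121566) and Krt15 (chr11:100131759-100135949) follow each other over 89.3 kb, and Krt19 (chr11:100140810-100145926) comes next. Of the 6, Krt13, a keratin of stratified mucosa, did not exceed 0.08 TPM in any library, and the other 5 had a higher SPF mean in the cauda than in the caput. Krt23 lies apart from them, at chr11:99477973-99493120.

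**Figure D4:**
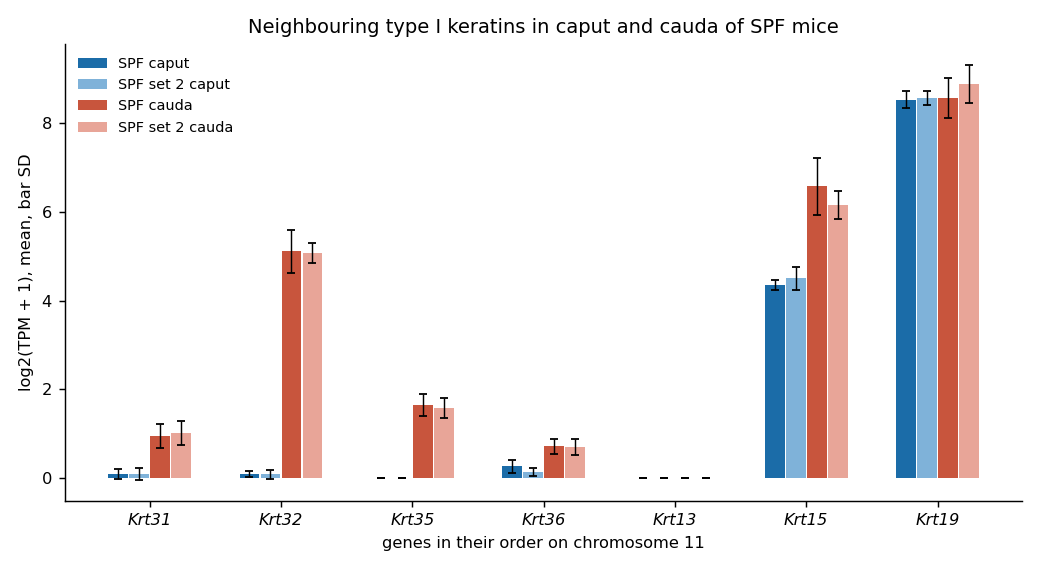
Mean level ± SD, as log2(TPM + 1), of the neighbouring genes Krt31, Krt32, Krt35, Krt36, Krt13, Krt15 and Krt19 in chromosomal order, in caput and cauda of SPF males (n = 4) and of the second SPF set (n = 5). Krt31, Krt32, Krt35 and Krt15 stand higher in the cauda, Krt13 is at or near 0 in both, and Krt19 overlaps.

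Stretches just before the start are given for 3 hair keratins with a higher SPF mean in the cauda, and for the caput keratin Krt23. Of the 3, Krt36 differed by under 1.5-fold between the regions in every set. Krt35 had no promoter sequence. The sequences are from RefSeq (GRCm38.p6, all on the minus strand, written 5′ to 3′). They lie at chr11:100050552-100050801 (Krt31), chr11:100088270-100088519 (Krt32), chr11:100105627-100105876 (Krt36, within the RefSeq span of the gene and over an exon of the noncoding RNA Gm12347) and chr11:99493138-99493370 (Krt23, less the 17 bases next to the start). Capitals mark TATAAA, or ATAAA where TATAAA is absent, within 50 bases of the start only, and the words CTTTGAA and AGTCCTGACTT anywhere.
Krt31: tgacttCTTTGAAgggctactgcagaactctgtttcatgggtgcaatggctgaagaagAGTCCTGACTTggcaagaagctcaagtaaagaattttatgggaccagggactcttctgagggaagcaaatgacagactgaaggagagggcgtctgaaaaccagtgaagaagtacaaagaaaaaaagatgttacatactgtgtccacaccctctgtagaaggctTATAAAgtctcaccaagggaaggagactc
Krt32: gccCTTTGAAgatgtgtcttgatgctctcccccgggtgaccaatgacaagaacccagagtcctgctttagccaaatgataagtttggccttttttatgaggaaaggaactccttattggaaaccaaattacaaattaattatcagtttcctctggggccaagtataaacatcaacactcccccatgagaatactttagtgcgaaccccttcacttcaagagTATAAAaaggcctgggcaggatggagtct
Krt36: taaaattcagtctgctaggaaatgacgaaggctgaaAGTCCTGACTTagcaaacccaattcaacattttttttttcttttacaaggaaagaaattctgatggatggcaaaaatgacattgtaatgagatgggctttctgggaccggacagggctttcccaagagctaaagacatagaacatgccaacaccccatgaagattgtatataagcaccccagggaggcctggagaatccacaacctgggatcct
Krt23: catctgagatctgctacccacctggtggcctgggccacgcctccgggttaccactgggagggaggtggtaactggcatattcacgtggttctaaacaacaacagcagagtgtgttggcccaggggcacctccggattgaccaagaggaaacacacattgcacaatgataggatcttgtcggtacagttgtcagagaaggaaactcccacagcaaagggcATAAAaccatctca

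AGTCCTGACTT is the longest run of letters that the Krt31 and Krt36 stretches share. These words were chosen after the sequences were seen, and a match is a description, not a binding site. Of 32817 RefSeq promoters, 2.63% held TATAAA on the gene's strand (3.51% on either strand) in the last 50 bases before the start and 6.58% held ATAAA (10.2% on either strand), a word that TATAAA contains. Of the 35 keratins with a promoter sequence, 15 held TATAAA and 23 held ATAAA on the gene's strand in that window. Krt31 and Krt32 held TATAAA 29 bases before the start, Krt23 held ATAAA at 31 bases and Krt36 held neither. CTTTGAA was found within 250 bases on the gene's strand of 4 keratins, all hair keratins (Krt31, Krt32, Krt33b, Krt34), and of 2.38% of all promoters (4.46% on either strand). AGTCCTGACTT was found in Krt31 and Krt36 and in 0.0548% of all promoters (0.0914% on either strand). Krt33b and Krt34, which hold CTTTGAA, never had a group mean of 1 TPM.

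Among the keratins of stressed and stratified epithelium, Krt17 had the highest mean in SPF caput and in SPF cauda, but not in SPF testis. It was at 12.7, 13.7, 9.94 and 11.1 TPM in SPF caput and 7.55, 1.47, 6.00 and 13.2 TPM in SPF cauda. The cauda libraries spread over the whole range up to the caput values, and the SPF difference of -0.92 did not pass the test (adjusted p 0.119). It was called when SPF cauda replicate 4 was left out (-1.27, adjusted p 0.0152), in the second SPF set (-1.21, SE 0.27, adjusted p 0.0014) and in GF males (-1.75, SE 0.12, adjusted p 7.34e-08). Krt6a was found in the testis (2.42, 0.80 and 1.64 TPM in SPF, 0.80 to 2.42 TPM over all 15 libraries) and was listed at 0 in every caput library. Its transcripts share 45.7% of their windows with other keratins. Krt16 and Krt6b, the other wound keratins, stayed at or below 0.30 and 0.12 TPM.

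Krt10, the type I keratin of differentiating epidermis, was at 3.75, 4.54, 3.94 and 3.68 TPM in SPF caput and 2.06, 1.73, 1.44 and 1.08 TPM in SPF cauda, without overlap (-0.96, SE 0.14, adjusted p 0.000446). It was called in GF males too (-0.71, adjusted p 0.000566), while in the second SPF set the difference of -0.55 was under 1.5-fold (adjusted p 0.00149) and was called without caput replicate 5 or cauda replicate 4 (-0.63 and -0.61). Krt77 and Krt78, epidermal type II keratins, were low but present in the testis, at 0.40 to 1.55 TPM and 0.18 to 0.82 TPM over 15 libraries. They did not exceed 0.32 and 0.13 TPM in the caput and cauda. Krt4, the type II keratin of oesophagus and tongue, was chosen after its values were seen. It was at 3.24, 0.59, 4.15 and 18.7 TPM in SPF cauda and at most 0.24 TPM in the caput (2.23, SE 0.62, adjusted p 0.0149), and at 0.92, 0.60, 1.44, 1.73 and 9.44 TPM in the second SPF set (1.48, adjusted p 0.0051).

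The highest cauda values of some of these keratins fell in the same libraries. Krt4, its chromosomal neighbour Krt79, and Krt17 were each highest in SPF cauda replicate 4 and in replicate 5 of the second set, among the libraries of their group. Krt79 reached 1.36 and 2.02 TPM there. The pattern was not limited to these genes, as summed keratin RNA was highest in the same libraries. It was 2477 TPM in SPF cauda replicate 4 (1586 to 2092 TPM in the others). In replicate 5 of the second set it was 2435 TPM (1323 to 1780 TPM in the others). SPF cauda replicate 4 also had the lowest sum of sperm and spermatid markers in its group (48.9 TPM, against 313, 1775 and 863 TPM), and replicate 5 of the second set had 1169 TPM (966 to 2771 TPM in the others) with the highest mesothelial marker sum of its group (42.1 TPM). Summed epidermal markers other than keratins were the highest of their group in each of these libraries. They were 174.2 TPM in SPF cauda replicate 4 (89.0 to 129.8 TPM in the others). In replicate 5 of the second set they were 128.1 TPM (68.6 to 103.2 TPM in the others). The part of these markers in the levels was not tested.

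Between testis and epididymis, most keratins tested were lower in the testis, as members present in the epididymis only had to be. Of 10 keratins tested between SPF testis and caput, 10 were called lower (27.4% of all genes were called lower and 80.2% in either direction). In the second set 9 of 10 were called lower (32.1% of all genes lower, 79.4% in either direction). Against the cauda, 11 of 12 were called lower in both sets (26.5% and 30.3% of all genes lower, 77.5% and 78.7% in either direction). The keratin medians were -6.25 and -6.04 against the caput and -6.15 and -5.28 against the cauda, while the medians of all genes were 0.77, 0.43, 0.69 and 0.50, above 0, so that TPM of the testis and the epididymis differ over the whole transcriptome. Krt10 was the keratin not called, at -0.32 against SPF cauda (adjusted p 0.227). Krt4 lost its call against SPF cauda without any one of the SPF testis libraries (adjusted p 0.0501 to 0.0633).

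Krt8 was the leading testis keratin. It was at 9.77, 5.64 and 8.87 TPM in SPF testis and at 5.64 to 12.5 TPM over all testis libraries, which was 35.9% to 58.1% of their keratin RNA. The SPF caput mean was 63.4 times higher (-5.85 on the log2 scale). Krt18, its partner, was at 0, 0.19 and 0.93 TPM in SPF testis, below Krt8 in each library. With no filter on low genes, Krt6a was higher in testis than in caput (adjusted p 0.000211 in the SPF set, 3.15e-07 in the second). Krt77 (0.73, adjusted p 8.51e-05) and Krt78 (0.59, adjusted p 0.00288) were also called higher in the SPF set, where 65.3% of all genes were called. In the second set (64% of all genes called) Krt77 was called (0.69, adjusted p 4.82e-05), but Krt78 was under 1.5-fold (0.58). Epcam, a surface protein of epithelial and germ cells, was at 13.9 to 25.3 TPM in the testis, and Cdh1, the epithelial cadherin, did not exceed 1.41 TPM there.

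Genes that work with keratins were taken from fixed lists, drawn up when earlier results of these data were known. Desmosomes anchor keratin filaments at cell junctions, and plakins link them there. Of 17 such genes, 13 were tested between cauda and caput of SPF males, with 2 higher and 5 lower (median -0.36, against 0.07 for all genes, of which 21.1% were called higher and 18.4% lower). The plakin Eppk1 (-1.72) and the plakophilin Pkp3 (-1.43) were lower, and the plakin Ppl (1.42) and the desmocollin Dsc2 (1.35) higher. The second set gave 2 higher and 6 lower, and GF males 2 and 5, of 13 tested, where the shares of all genes were 23.9% and 26.4% and then 30.8% and 15.8%. Of 9 other intermediate filament genes tested, 4 were called higher in SPF cauda and 0 lower, against 4 and 2 in the second set and 4 and 1 of 8 in GF males. In SPF males these were the muscle filament genes Synm (3.25) and Des (2.83), Bfsp1, known from the lens (0.96), and nestin, Nes (0.88). Smooth muscle markers moved with them, with 6 of 7 called higher in SPF cauda (median 2.16), and their part was not tested. Of 11 epithelial transcription regulators tested, 3 were called higher in SPF cauda and 0 lower, among them Ehf (1.20) and Tfap2c (0.60). The second set gave 2 higher and 1 lower, and GF males 6 and 0.

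Against the caput, 7 of 12 desmosome and plakin genes tested were lower in SPF testis and 3 higher, where 80.2% of all genes were called and 27.4% lower. The lower genes included the desmosomal membrane protein Perp (-5.35), Pkp3 (-4.34), desmoplakin Dsp (-3.31) and Eppk1 (-3.19). Of 11 regulators, 5 were higher in the testis, among them Klf5 (4.72), Ovol2 (4.23) and Klf4 (4.06), and 5 lower, among them Elf3 (-7.28). Of 8 other intermediate filament genes, 5 were higher, with Nefh at 1.74 and the lamin Lmnb2 at 1.52, and 3 were lower, with Des at -2.31 and the lamin Lmna at -2.19. Smooth muscle markers were lower for 6 of 7 genes (median -1.75). The counts of regulators and other filaments called lie near the share of all genes.

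Within a tissue, no keratin was called between any group and its SPF controls. The limma fit gave 0 calls among 4 keratins in GF testis (0.0423% of all genes called), 11 in GF caput (0.348%), 14 in GF cauda (0.144%), 11 in F1 caput (2.72%), 13 in F1 cauda (0.188%), 11 in Rag2 knockout caput (0.159%) and 13 in Rag2 knockout cauda (0.13%). The recolonized GF males gave 0 calls among 4 in testis (1.28%), 11 in caput (0.175%) and 14 in cauda (0.323%) against the second SPF set. An unadjusted p under 0.05 was found for 0, 3, 3, 3, 4, 4 and 6 keratins in the first 7 comparisons and for 2, 1 and 2 in the recolonized ones, in the same order. Over all genes this share was 13.5%, 16.8%, 15.7%, 28.9%, 23.5%, 18.3% and 10.5%, and 30.6%, 8.14% and 15.7%. With shares of all genes this low, a count of 0 among 4 to 14 keratins lies near the background. The fit called 18 of 12493 genes in GF cauda and 24 of 12784 in F1 cauda. From raw counts and at the same thresholds, the authors reported far more altered genes in these tissues. The absence of a call here is therefore not an absence of change. Medians of all genes were themselves off 0 in some comparisons, from -0.16 in recolonized testis to 0.28 in F1 cauda, and the values below are read beside them.

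**Figure D5:**
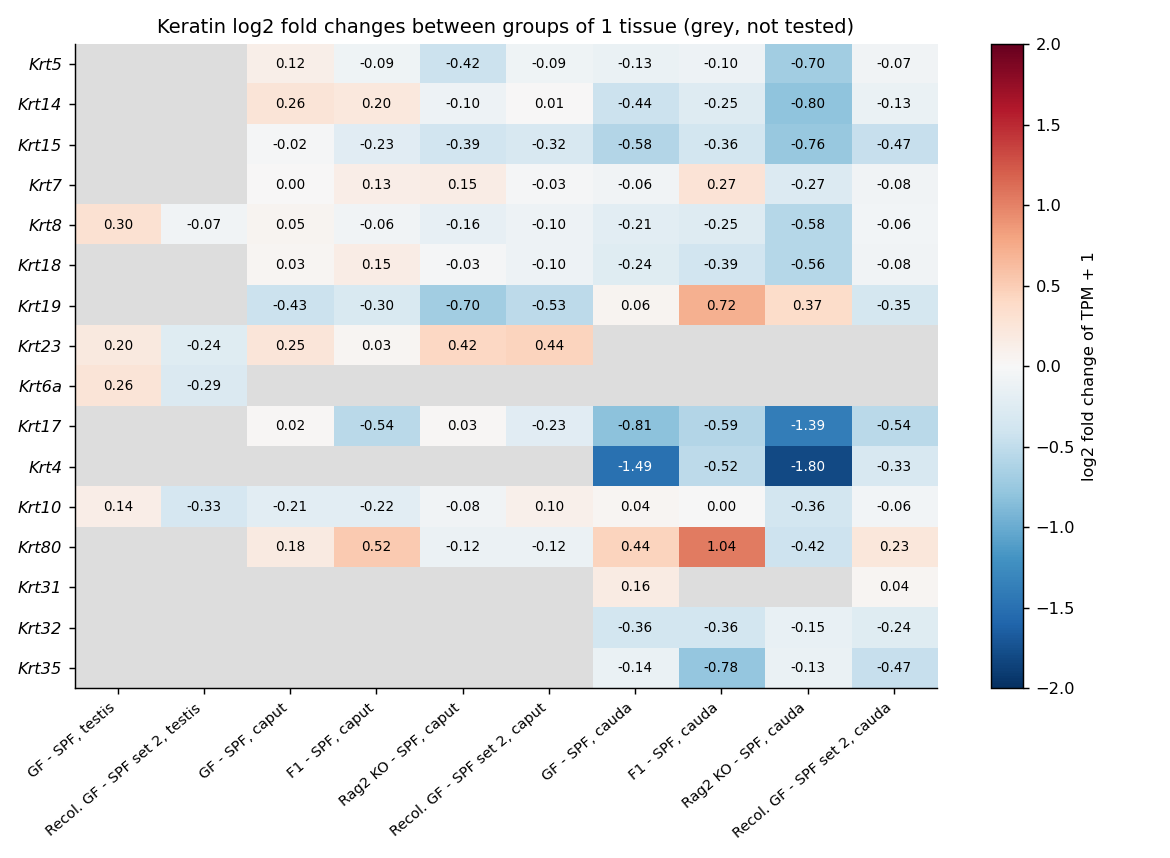
Difference in log2(TPM + 1) of 16 keratins (vertical axis) in the 10 comparisons of a group with the SPF controls of its tissue (horizontal axis), with red for higher, blue for lower and grey for keratins not tested. None of the differences was called, and the Rag2 knockout cauda column holds negative values for 12 of its 13 keratins.

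In GF testis all 4 differences were positive (median 0.23, against -0.10 for all genes), with the lowest adjusted p at 0.538. In GF caput the median was 0.03. Krt19 ran from 237.1 to 334 TPM over 6 libraries, with 5 of them below every SPF library (324 to 422 TPM), and differed by -0.43 (SE 0.13, adjusted p 0.146). Basal Krt14 and caput-specific Krt23 had differences of 0.26 and 0.25 (adjusted p 0.225 for both).

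In GF cauda 10 of 14 differences were negative (median -0.17, against 0.08 for all genes), and 12 of 14 when libraries were scaled to equal medians, where Krt10 and Krt19 changed sign. Krt14 was at 71.9, 100.99, 79.5, 91.2 and 76.2 TPM in the 5 libraries compared, against 79.6 to 144 TPM in SPF (-0.44, SE 0.18, adjusted p 0.292), and Krt4 differed by -1.49 (SE 0.57, adjusted p 0.258). All 14 ranges overlapped those of the controls, where 7.56% of all genes did not overlap. Without SPF cauda replicate 2, Krt17 was called (-1.30, adjusted p 0.0426), where the full fit gave -0.81 (adjusted p 0.372). Macrophage markers summed to 377.3 to 5045 TPM in the 5 GF cauda libraries compared and to 247.9 to 545.7 TPM in SPF cauda. Sperm and spermatid markers summed to 1892 to 2442 TPM in the same GF libraries and to 48.9 to 1775 TPM in SPF cauda, without overlap, with a positive difference for 12 of 12 genes (median 1.87). The part of either was not tested. Whether the GF difference itself differed between cauda and caput was fitted as an interaction. No keratin of 13 was called (0.0881% of all genes, 2 keratins and 11.5% of all genes at an unadjusted p under 0.05), with Krt14 at -0.70 (SE 0.21, adjusted p 0.187). Without SPF cauda replicate 2, 3 were called (Krt4, Krt14 and Krt17), and weighting the libraries by quality gave 1 call, Krt14. The share of all genes called under these settings was not compared.

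In F1 males, 5 keratins of the caput did not overlap with the SPF libraries (Krt14, Krt17, Krt18, Krt19, Krt80). Of the 11 keratins tested this was 5, where 26.8% of all genes did not overlap. Krt17 was at 7.14, 8.41 and 7.89 TPM, all below the lowest SPF library (-0.54, SE 0.12, adjusted p 0.0478). Krt18, in contrast, was at 775, 711 and 759.6 TPM, above the highest of 706 TPM, and Krt14 at 91.5, 98.3 and 95.3 TPM, above the highest of 87.3 TPM. Krt80, a type II keratin of many epithelia chosen after its values were seen, was at 2.33, 2.42 and 2.00 TPM against 1.15, 1.18, 1.57 and 1.17 TPM (0.52, SE 0.10, adjusted p 0.0391). Both folds were under 1.5 on the log2(TPM + 1) scale. Krt80 was called with a pseudocount of 0.1 and Krt17 with median scaling. Macrophage markers summed to 795 to 842 TPM in F1 caput and 553 to 644 TPM in SPF caput (3 of 11 tested called higher), and mesothelial markers to 136 to 158 TPM and 103 to 111 TPM, both without overlap. Their part was not tested. The only partner gene called in a comparison within a tissue was the plakin Eppk1, at 33.5 TPM in F1 caput and 17.3 TPM in SPF caput (0.92, SE 0.12, adjusted p 0.0197).

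In F1 cauda Krt19 was at 666, 704 and 519.9 TPM, above all 4 SPF libraries (0.72, SE 0.27, adjusted p 0.169), where all genes had a median of 0.28. Krt18 was at 460.3, 381 and 393 TPM, below all 4 (-0.39, SE 0.15, adjusted p 0.184). Krt19 made up 32.4% ± 3.23 of keratin RNA in F1 cauda (SD, n = 3) and 19.6% ± 3.19 in SPF cauda (n = 4), while in the caput the shares were 15.02% and 18.6%. The cauda share was also 29.4% ± 2.40 in the second SPF set (n = 5, 26.3% to 32.2%). Krt80 was at 4.72, 2.79 and 3.51 TPM, above the 0.99 to 1.53 TPM of SPF cauda (1.04, SE 0.18, adjusted p 0.0802), and Krt35 at 1.06, 0.39 and 1.17 TPM, below it (-0.78, SE 0.22, adjusted p 0.112). Krt18, Krt19, Krt35 and Krt80 were the 4 of 13 keratins without overlap, where 25.1% of all genes did not overlap. This count lies near that share. Krt35 and Krt80 were called when all groups of the tissue shared a fit and under library weights. Mesothelial markers other than keratins summed to 37.2 to 63.0 TPM in F1 cauda and 3.82 to 9.74 TPM in SPF cauda, without overlap. Macrophage markers did not overlap either (725 to 824 TPM against 247.9 to 545.7 TPM), and 12 of 12 sperm and spermatid genes had a positive difference (median 1.62). Their part was not tested.

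In the Rag2 knockout, 12 of 13 cauda differences were negative (median -0.56, against -0.06 for all genes), unchanged under median scaling. Krt5 was at 50.9, 46.9 and 49.9 TPM, below all SPF cauda libraries (-0.70, SE 0.24, adjusted p 0.374). Krt14 was at 69.4, 56.8 and 68.4 TPM, also below all (-0.80, SE 0.22, adjusted p 0.299). The luminal pair stood below the controls as well, with Krt8 at 372, 454 and 378 TPM (-0.58, SE 0.19, adjusted p 0.372) and Krt18 at 338, 382 and 369 TPM (-0.56, SE 0.15, adjusted p 0.279). Krt7 and Krt15 were the other keratins without overlap, making 6 of 13, where 13.2% of all genes did not overlap. Summed basal keratins were 169.7 ± 2.40 TPM (SD, n = 3) against 302 ± 96.7 TPM in SPF cauda. The second SPF set cauda gave 220.3 ± 41.6 TPM (172.3 to 282.1 TPM), and Krt5 (46.4 to 85.6 TPM), Krt8 (310.1 to 628 TPM) and Krt18 (303 to 576 TPM) covered the knockout values. Krt19 was the exception, at 519, 534 and 422 TPM (0.37).

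None of these differences passed the test as fitted. Krt14 was called with all groups in one fit, Krt14 and Krt8 under library weights, and Krt17 without SPF cauda replicate 2 (-1.87, adjusted p 0.0471). Sperm and spermatid markers summed to 2387, 4318 and 3742 TPM in the Rag2 knockout cauda and to 48.9 to 1775 TPM in SPF cauda, without overlap. Epithelial markers other than keratins summed to 1396 to 1475 TPM against 1423 to 1570 TPM. Of 10 basal-cell genes other than keratins, 1 had a positive difference (median -0.25, against -0.06 for all genes), with overlapping sums. Of 5 epidermal genes other than keratins, 0 were positive (median -0.76). Their sums were 64.9 to 73.7 TPM, against 89.0 to 174.2 TPM in SPF cauda and 68.6 to 128.1 TPM in the second set. None of these basal-cell and epidermal genes was called. Their part was not tested. In the knockout caput, with 2 libraries, Krt19 was at 252 and 204 TPM, below all SPF libraries (-0.70, SE 0.15, adjusted p 0.153). Krt23 was at 191 and 231 TPM, above them (0.42, SE 0.13, adjusted p 0.193). Of 11 keratins tested there, 5 did not overlap, where 29.7% of all genes did not.

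In recolonized GF males the caput keratin Krt23 was at 182, 192 and 221 TPM against 174, 142, 126, 146 and 143 TPM in the second SPF set, above every control (0.44, SE 0.11, adjusted p 0.265). It was the 1 keratin of 11 without overlap there, where 5.95% of all genes did not overlap. Krt19 spread most, at 159, 306 and 376 TPM (-0.53, SE 0.24, adjusted p 0.632). In the cauda 12 of 14 differences were negative (median -0.10, against -0.02 for all genes), with Krt15 at 51.6, 41.7 and 61.2 TPM (-0.47, SE 0.20, adjusted p 0.297). Krt32 was at 28.1, 28.3 and 26.3 TPM, inside or just under the control values of 27.8 to 41.5 TPM. In the testis Krt10 and Krt23 had differences of -0.33 and -0.24 (adjusted p 0.114 and 0.125).

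The swollen GF cauda lay outside the range of the other 5 libraries in some keratins. Of 14 keratins, 7 lay within that range. The share of all genes within it was not computed, so the count is not a result about keratins. Krt17 was at 14.1 TPM (2.27 to 3.45 TPM in the others), Krt7 at 109 TPM, Krt80 at 3.47 TPM and Krt4 at 2.50 TPM, all above that range. The 3 below it were the hair keratins Krt32 (10.3 TPM, against 19.2 to 34.7 TPM), Krt35 (0.85 TPM, against 1.13 to 2.65 TPM) and Krt31 (0.45 TPM). The basal keratins Krt5 and Krt14 were inside it, at 75.5 and 85.4 TPM. This library had the highest macrophage marker sum of the GF cauda, 17534 TPM, and the lowest epithelial marker sum, 1069 TPM (1452 to 1870 TPM in the others). Its summed epidermal markers other than keratins were also the highest of the GF cauda, 205.6 TPM (96.9 to 170.7 TPM in the others). As a single library, it allowed no test.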

How the data were processed

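PolyA-selected RNA of testis, caput and cauda was sequenced in 62 libraries. The authors aligned and quantified the reads with RSEM (mm10, version not given in the sources used here) and deposited TPM per gene; the deposited TPM columns sum to 999999 to 1000001, so depth is unknown. Each library was a sample of 1 animal per the methods, but which samples of different tissues share an animal is not given.

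Differences were fitted with limma 3.58.1 in R 4.3.3 on log2(TPM + 1), over genes whose mean TPM in the libraries compared reached 1, with Benjamini-Hochberg adjustment over all genes tested. A call needed a 1.5-fold change and an adjusted p not above 0.05. No covariates were used in the fits. The swollen GF cauda replicate 4 was left out, as by the authors. The script for the fits was tested on simulated data. Tables were made with Python 3.11.15 and pandas 2.3.3, and figures with matplotlib 3.10.9. Shared transcript windows of 50 bases, the read length, were counted in the GENCODE vM21 transcripts, and gene positions and promoters were taken from RefSeq.

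Alternatives were a pseudocount of 0.1, no filter, a mean of at least 5 TPM, median scaling, a replicate block, 1 fit over all groups of a tissue, array weights, inclusion of the swollen cauda, and leaving out each replicate. The members and gene lists were chosen with earlier results of these data known. Values by library were given for the basal keratins, Krt7, Krt8, Krt18, Krt19, the stress keratins, any keratin called within a tissue, and any among the 8 highest SPF means of a tissue. From lists of partner genes, at most 4 called genes per list and comparison were named, by absolute difference. A regulator gene that this would name is not reported here. Other keratins named were chosen after their values were seen.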

Additional observations from a re-analysis of the deposited data

Results flagged for a closer look

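A library far from the others of its group was found 3 times among 69 groups of values tested with Dixon's criterion on log2(TPM + 1), where chance gives about 1 in 20. Krt8 was at 537 TPM in caput replicate 5 of the second SPF set (455 to 477 TPM in the others). Krt17 was at 14.1 TPM in GF cauda replicate 4, the swollen organ (2.27 to 3.45 TPM), and at 9.74 TPM in cauda replicate 5 of the second SPF set (2.53 to 3.15 TPM). The swollen cauda, used in no comparison, was also above every SPF cauda library in Krt17 (14.1 TPM, highest SPF 13.2 TPM) and in Krt7 (109 TPM, highest SPF 100.1 TPM). The same held for Krt80 (3.47 TPM, highest SPF 1.53 TPM).

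In 4 cases every library of a group lay on one side of the SPF mean in the caput and every one on the opposite side in the cauda. In F1 males Krt19 differed by -0.30 in the caput and 0.72 in the cauda, 1.02 apart, and Krt18 by 0.15 and -0.39, -0.54 apart. In the Rag2 knockout Krt19 differed by -0.70 and 0.37, 1.07 apart, and Krt7 by 0.15 and -0.27, -0.42 apart. These differences between regions were not tested. The share of all genes that met this rule was not computed, and with so few libraries per group chance can give the pattern.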

How the results depend on the processing

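The 203 keratin differences were recomputed 3107 times. Of these, 3069 stayed on the same side of the threshold (106 of them uncalled values that changed sign), 27 gained and 10 lost a call, and 1 reversed. Of 280 recomputed counts of calls, 267 stayed within 1.5 times. The value that reversed was Krt10 between testis and cauda of the second SPF set, 0.05 as reported and -0.66 under median scaling (adjusted p 0.00136), which moves all testis values down.

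The counts that moved, each reported as 0 unless stated, were as follows. A pseudocount of 0.1 and median scaling each gave 1 call in F1 caput. A single fit over all groups of a tissue gave 2 calls in F1 cauda and 1 in Rag2 knockout cauda, and array weights gave 2, 2 and, for the interaction, 1. A minimum of 5 TPM left 3 calls between SPF cauda and caput (6 as reported), and no filter gave 17 between testis and cauda in both SPF sets (11 as reported). Leaving out single replicates gave 0 to 1 calls in GF cauda and in Rag2 knockout cauda and 0 to 3 for the interaction, the highest without SPF cauda replicate 2. It gave 5 to 7 calls between cauda and caput in SPF males, 6 to 8 in the second set and 5 to 6 in GF males, and 10 to 11 and 9 to 11 between testis and cauda. The cause was not tested, and the share of all genes called under each alternative was not compared with these counts.

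Replicate numbers were not taken as pairs: same-numbered deviations correlated at -0.53 to 0.27, and in no comparison were all above 0.1. These correlations cannot exclude that same-numbered samples of different tissues share an animal. The replicate block put Krt18 between GF cauda and caput under 1.5-fold (-0.57, adjusted p 0.00461) and changed no other keratin call. Depth is unknown, so keratins below about 1 TPM carry no stated precision.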
